A study of Mus musculus with 6 samples.

Results

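The proteasome genes of mouse testis were described in 6 total RNA-seq libraries, of which 3 were ethanol-fed and 3 were control-fed. Members were the protein-coding genes of the deposited mm10 gene table whose symbol begins with Psm, a letter from a to g and a digit. The rule found 50 genes among the 45777 in the table, and another 3 rows that match the symbol pattern were pseudogenes and were left out. All mice were wild type, and every library came from testis after 16 weeks on 10 ml per day of the LDC liquid diet. The ethanol-fed and control-fed groups had both first been fed the control LDC diet for 5 days. Strain, age and ethanol content are not stated in the labels. The labels do not say whether each library stands for its own animal, and p-values therefore describe the spread among these libraries, which may be technical.

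The proteasome is the protease that degrades proteins tagged with ubiquitin. Its barrel-shaped core is built of outer rings of alpha subunits (Psma genes) and inner rings of beta subunits (Psmb genes), and Psmb5, Psmb6 and Psmb7 carry the active sites. A regulatory particle caps the core. Its base holds the ATPases that unfold substrates (Psmc genes), and its lid removes the ubiquitin chain (most Psmd genes). Germ cells of the testis make an alternative alpha subunit, Psma8, that takes the place of Psma7. Psme4 is an activator that opens the core without ubiquitin and is known for the degradation of core histones when spermatids exchange histones for protamines. Psmb8, Psmb9 and Psmb10 replace the 3 active-site subunits in immune cells and after interferon.

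Total counts per library ranged from 38935654 to 47420249. The labelled tissue matched its markers, with spermatocyte, spermatid, Sertoli and Leydig genes detected in every library. Levels of different genes are given in FPKM, which the authors scaled to the length of the transcript and the depth of the library. Differences between the diets are given as CPM (counts scaled to a common library size by TMM) and as log2 fold changes, ethanol minus control, from edgeR's quasi-likelihood test, with a standard error (SE) and a p-value adjusted over all 25073 genes tested.

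No proteasome gene rose or fell past an edgeR adjusted p of 0.05. The genes of the core and of the regulatory particle were abundant and differed little between the diets. Of the 50 members, 48 had enough counts to be tested, and 0 passed the threshold in either direction, against 0% of all genes tested. The lowest adjusted p of a member was 0.313, for the core chaperone gene Psmg2. At an unadjusted p under 0.05 stood 1 member, Psmg2, or 2.08% of the 48, against 13.3% of all genes. The libraries of the diets did not overlap for 6 members, or 12.5%, against 18.8% of all genes. These were Psmb1, higher on ethanol, and Psmc1, Psmd12, Psmd13, Psme1 and Psmg2, lower on ethanol. Psmd13 was without overlap on all 5 scales tried, and Psmd12 and Psme1 on 2 of them. DESeq2 also called 0 members, with a lowest adjusted p of 0.275, while it called 203 genes higher and 127 lower over all genes.

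Log2 fold changes of the 48 tested members ran from -0.23 for Psme1 to 0.15 for Psma7. Values below 0 were found for 34 members and values above 0 for 14, with a median of -0.042, where the median of all genes tested was 0.0065. The member median was -0.0167 without control library 1, -0.0170 without ethanol library 1, -0.0757 without control library 2 and -0.0663 without ethanol library 3. SEs had a median of 0.070, and 41 of the 48 were under 0.1. The 95% interval of the difference lay within 0.32 of 0 on the log2 scale for 38 members, and within 1.5-fold for 46. The 2 exceptions at 1.5-fold were the immune forms Psmb8 and Psmb9, which had the fewest reads among the tested members. The sign of the member median depends on the scale, and on the scales given next the median of all genes tested moved the same way. On the authors' TPM, as log2(TPM + 1), 19 of the 48 members were below 0 and the median was 0.010, beside 0.044 for all genes. Scaling by total counts alone gave 26 members below 0 and a median of -0.016, beside 0.032 for all genes.

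**Figure D1:**
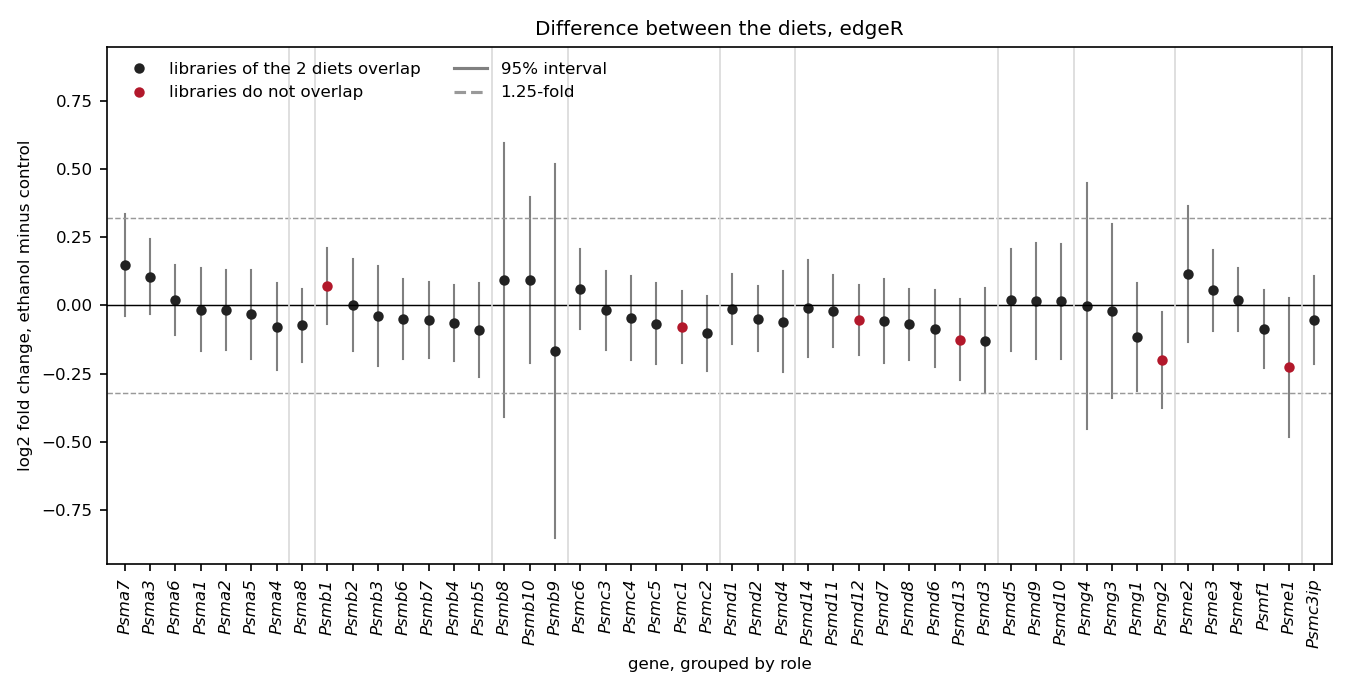
Log2 fold change (ethanol minus control, edgeR) of the 48 tested proteasome genes, grouped by role, with 95% intervals as vertical lines and dashed lines at 0.32 above and below 0. Red points mark the 6 genes whose libraries did not overlap between the diets, and the interval of 1 gene, Psmg2, does not reach 0.

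Psmc3 had the highest level of the 31 constitutive subunits of the core and regulatory particle, a mean of 421 FPKM over the 6 libraries, and 80 of the 21949 protein-coding genes in the table had a higher mean. Psma6 followed at 343.8 FPKM and Psmd8 at 185.4 FPKM. Psmd3 had the lowest level, 13.9 FPKM. The median subunit was at 44.4 FPKM, 8 subunits were above 100 FPKM, and 21 lay between 20 and 70 FPKM. In the order of these 31 levels, library ranges of neighbours did not overlap for 7 of 30 pairs, which include Psmc3 and Psma6, Psma6 and Psmd8, and Psmd2 and Psmb6. The neighbours from Psmc5 at 61.3 FPKM down to Psmd14 at 23.1 FPKM each overlapped the next. The highest and the lowest level differed by 30.4-fold.

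**Figure D2:**
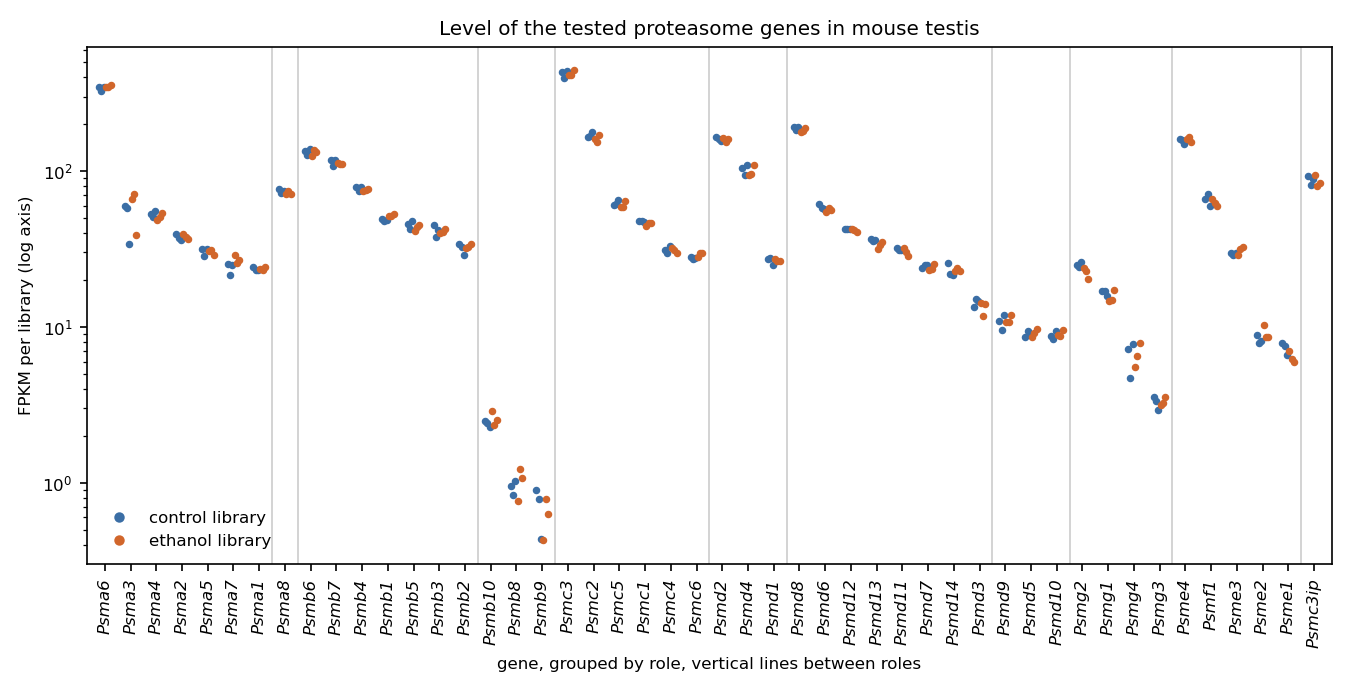
FPKM per library (log axis) of the 48 tested proteasome genes, grouped by role, with control libraries in blue and ethanol libraries in orange. Psmc3 and Psma6 are the highest, from 325.4 to 440.4 FPKM, and the immune forms Psmb8 and Psmb9 lie between 0.428 and 1.23 FPKM.

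Subunits that sit together in one ring differed widely in mRNA level. Psma6 was 11.9 to 15.2 times as abundant as Psma7, a subunit of the same ring, over the 6 libraries. Psmc3 was 13.7 to 15.9 times as abundant as the base ATPase gene Psmc6. In the beta ring the highest level, Psmb6, was 3.88 to 4.82 times that of the lowest, Psmb2. These ratios compare values per length within a library, so they do not depend on library scaling.

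The start regions of Psme4, Psma6 and Psma7 are shown because they belong to the testis-linked activator, to the most abundant alpha subunit and to the counterpart of the testis form. Each window runs from 250 bases before to 50 after a RefSeq start of the mm10 assembly (GRCm38.p6), 5′ to 3′ on the gene's strand. Psme4 (chr11:30771525-30771824) and Psma6 are on the plus strand and Psma7 (chr2:180042415-180042714) on the minus strand. Psma6 has 2 listed starts, one at chr12:55383972-55384271 and one further downstream at chr12:55398575-55398874. Capitals mark the antioxidant response core TGACNNNGC, the CCAAT box CCAAT and the ETS core CCGGAAG on either strand.
Psme4: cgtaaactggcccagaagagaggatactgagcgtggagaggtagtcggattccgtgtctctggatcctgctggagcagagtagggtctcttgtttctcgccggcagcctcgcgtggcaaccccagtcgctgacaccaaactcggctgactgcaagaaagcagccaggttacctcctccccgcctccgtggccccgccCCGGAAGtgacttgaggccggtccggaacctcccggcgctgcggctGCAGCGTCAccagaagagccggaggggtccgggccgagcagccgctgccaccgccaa
Psma6 first start: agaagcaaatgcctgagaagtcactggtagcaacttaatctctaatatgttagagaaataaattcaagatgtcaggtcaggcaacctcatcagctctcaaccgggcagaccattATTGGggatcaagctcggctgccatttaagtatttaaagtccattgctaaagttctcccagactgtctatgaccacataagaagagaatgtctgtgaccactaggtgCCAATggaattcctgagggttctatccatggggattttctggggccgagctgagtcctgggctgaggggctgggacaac
Psma6 second start: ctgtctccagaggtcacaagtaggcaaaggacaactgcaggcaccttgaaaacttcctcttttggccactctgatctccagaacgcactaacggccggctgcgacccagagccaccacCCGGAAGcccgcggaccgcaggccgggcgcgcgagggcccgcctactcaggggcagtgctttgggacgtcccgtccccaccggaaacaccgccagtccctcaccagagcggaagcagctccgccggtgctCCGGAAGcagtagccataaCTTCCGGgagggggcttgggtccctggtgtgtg
Psma7: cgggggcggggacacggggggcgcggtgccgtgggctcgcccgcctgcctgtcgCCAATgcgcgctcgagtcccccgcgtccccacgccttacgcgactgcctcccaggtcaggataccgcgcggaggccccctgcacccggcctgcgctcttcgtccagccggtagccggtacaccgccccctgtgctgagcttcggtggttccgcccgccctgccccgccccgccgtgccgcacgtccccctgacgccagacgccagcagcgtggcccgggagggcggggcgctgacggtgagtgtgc

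The Psme4 window held 1 TGACNNNGC, the motif bound by the stress factors Nfe2l1 and Nfe2l2, and 1 CCGGAAG. The first Psma6 window held 2 CCAAT boxes and the second held 3 CCGGAAG motifs, while the Psma7 window held 1 CCAAT box. Of the 50 members, 42 had a window in the RefSeq table, and 6 motifs were counted on both strands. CCGGAAG was in 15 of the 42, or 35.7%, against 9.9% of the 27025 genes with a window. TGACNNNGC was in 6 of the 42, or 14.3%, against 14.0% of all. These 6 were Psmb5, Psmb6, Psmc6, Psmd9, Psmd12 and Psme4. CCAAT was in 35.7% of members and 41.1% of all genes, and the GC box GGGCGG in 54.8% and 38.2%. The interferon element was in 11.9% and 4.0%, and the cAMP response motif TGACGTCA in 0 members and 2.0% of all genes. Carriers of the interferon element were Psmb3, Psmd4, Psmd9, Psme1 and Psmg4. Among Psmb8, Psmb9, Psmb10, Psme1 and Psme2 it was in 1 of 5. A match of letters is a description only.

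Alpha ring genes gave 3 log2 fold changes above 0 and 4 below 0 among the constitutive members Psma1 to Psma7, and none passed the test. Psma7 had the smallest p of the ring. In libraries 1, 2 and 3 its values were 27.5, 23.5 and 27.5 CPM on the control diet and 30.4, 27.4 and 29.1 CPM on the ethanol diet. The ethanol libraries 1 and 3 were above every control library, and ethanol library 2 was below control libraries 1 and 3, at 27.42 against 27.49 CPM, so the groups overlapped by this margin. On FPKM, TPM and total-count scaling the libraries of Psma7 did not overlap. The log2 fold change was 0.15 (SE 0.086, edgeR adjusted p = 0.490). Psma6 was at 358 ± 16.8 CPM in control and 363 ± 10.98 CPM in ethanol testes (SD, n = 3), a log2 difference of 0.02. The remaining alpha genes lay between -0.08 for Psma4 and 0.11 for Psma3.

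The testis form Psma8 was more abundant than Psma7 in every library, by 2.44 to 3.34 times in FPKM. In CPM, Psma8 read 146.5, 133.9 and 143.9 on the control diet and 130.4, 139.2 and 133.9 on the ethanol diet, in libraries 1, 2 and 3. Control libraries 1 and 3 were the highest, and control library 2 lay among the ethanol libraries. The means were 141.4 ± 6.64 and 134.5 ± 4.42 CPM (SD, n = 3), a log2 difference of -0.07 (SE 0.061, edgeR adjusted p = 0.660) with a 95% interval from -0.21 to 0.06.

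As a share of Psma8 plus Psma7 in FPKM, Psma8 made up 75.3%, 76.9% and 75.0% on the control diet and 70.9%, 74.3% and 72.4% on the ethanol diet. All 3 ethanol libraries were below all 3 control libraries. The means were 75.7% ± 1.04 and 72.5% ± 1.70 (SD, n = 3), a difference of -3.23 percentage points. The exact two-sided permutation test gave p = 0.1, the smallest that 3 against 3 libraries allow, and an adjusted p of 0.6 over the 6 shares tested. Neither Psma8 nor Psma7 passed the edgeR test on its own. The log2 fold change was -0.07 for Psma8 and 0.15 for Psma7. On log2(FPKM + 1) it was -0.048 for Psma8 and 0.186 for Psma7, so the higher Psma7 value made up the larger part of the lower share. Psma8 is expressed in spermatocytes, and the summed level of 8 spermatocyte markers was 1158 to 1207 CPM in control and 1055 to 1095 CPM in ethanol libraries. All 8 of these markers had log2 fold changes below 0, with a median of -0.14, and 0 passed the adjusted test. The part of these markers in the Psma8 share was not tested, and in whole testis fewer cells of a type and less RNA per cell cannot be told apart.

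**Figure D3:**
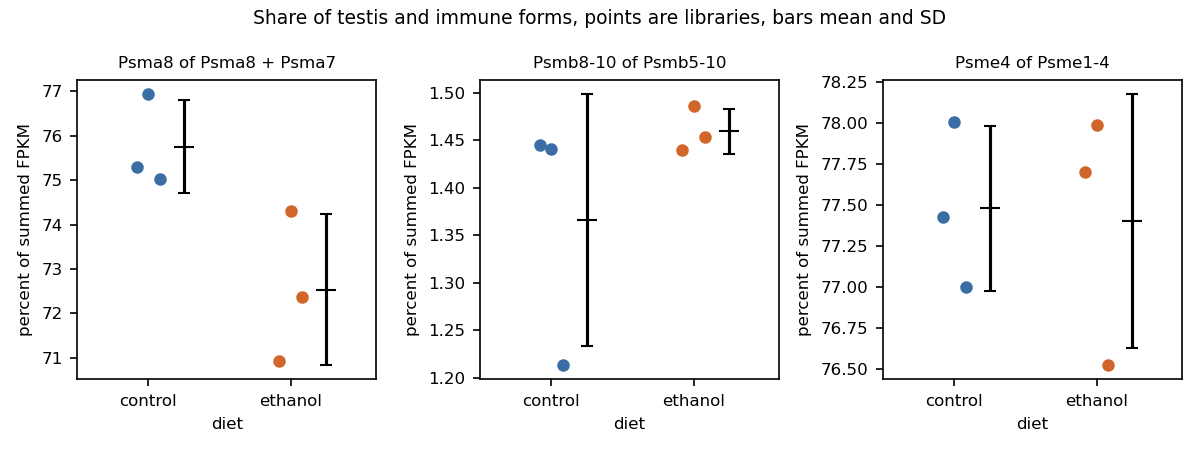
Percent of summed FPKM taken by Psma8 of the Psma8 and Psma7 pair, by the immune forms of the 6 active-site genes, and by Psme4 of 4 activators, per library and diet, with mean and SD (n = 3) as bars and each axis cut to the range of its values. The Psma8 share is 75.0% to 76.9% in control and 70.9% to 74.3% in ethanol libraries, and the other 2 shares overlap between the diets.

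Psma3 showed how a value per length can part from its counts. Its counts were steady, at 94.98, 86.9 and 91.3 CPM in control and 94.6, 97.3 and 102.1 CPM in ethanol libraries 1, 2 and 3. The authors' FPKM were 59.5, 57.8 and 33.9 in control and 65.7, 71.1 and 38.7 in ethanol libraries. Library 3 of both diets had the lowest FPKM, although neither had the lowest count. The transcript length that counts and FPKM imply was 2641 and 2633 bases in control and ethanol library 3, and between 1380 and 1574 bases in the other 4 libraries. Psma3 was the only one of the 48 tested members whose implied length varied by more than 1.5-fold between libraries, and 3 members varied by more than 1.1-fold. The others of these were Psmb9, at 1.30-fold, and Psmd11, at 1.13-fold. The FPKM of Psmb9 enters its ratio to Psmb6 and the immune shares given below. By counts its log2 fold change was 0.11 (SE 0.063, edgeR adjusted p = 0.503).

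**Figure D4:**
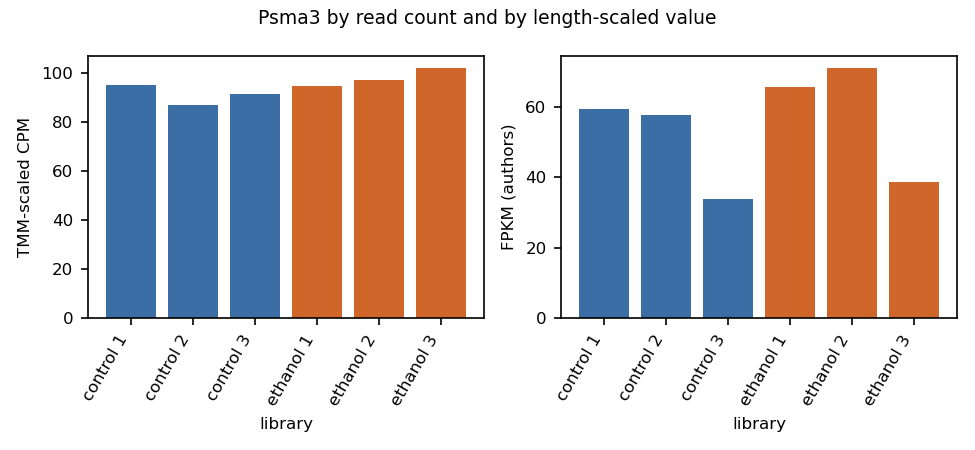
Psma3 in each of the 6 libraries as TMM-scaled CPM (left) and as the authors' FPKM (right), bars from 0, control in blue and ethanol in orange. CPM stays between 86.9 and 102.1, while FPKM in library 3 of each diet is 33.9 and 38.7 against 57.8 to 71.1 in the others.

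In the beta ring 5 of the 7 constitutive genes were below 0, 2 were above, and 0 passed the test. The chymotrypsin-like subunit gene Psmb5 had the smallest p, with 44.8, 40.7 and 47.3 CPM in control and 39.1, 41.8 and 43.9 CPM in ethanol libraries. Its groups overlapped, and the log2 fold change was -0.09 (SE 0.078, edgeR adjusted p = 0.670). The caspase-like subunit gene Psmb6 had 155.8, 144.3 and 163.3 CPM in control and 140.3, 155.6 and 151.8 CPM in ethanol libraries. The trypsin-like subunit gene Psmb7 had 124.5, 112.8 and 127.7 CPM in control and 116.6, 116.8 and 118.1 CPM in ethanol libraries. Both overlapped between the diets, with log2 fold changes of -0.05 and -0.05. Psmb1, a subunit without an active site, was on TMM-scaled CPM the one tested member higher in every ethanol library than in any control library. With RLE factors it overlapped, and on FPKM and TPM Psma6, Psma7 and Psmc6 were also higher without overlap. Psmb1 had 56.9, 54.6 and 57.4 CPM in control and 57.6, 58.5 and 61.5 CPM in ethanol libraries, a log2 difference of 0.07 (SE 0.063, edgeR adjusted p = 0.675).

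The immune forms were scarce in testis. Psmb10 was at 2.498 FPKM, Psmb8 at 0.982 FPKM and Psmb9 at 0.663 FPKM over the 6 libraries. The constitutive counterparts were 39.1 to 52.1 times as abundant for Psmb7 over Psmb10, 35.4 to 54.4 times for Psmb5 over Psmb8, and 148 to 316 times for Psmb6 over Psmb9. Psmb8 (chr17:34198195-34201454) and Psmb9 (chr17:34182030-34187330) are neighbours in the major histocompatibility region. The span of Psmb9 meets that of Tap1 on the other strand, and the strand setting of the counting is not given, so reads of these 2 genes cannot be told apart with certainty.

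Psmb10 had 3.55, 3.40 and 3.29 CPM in control and 4.004, 3.34 and 3.61 CPM in ethanol libraries. Psmb8 had 62, 51 and 62 reads in control and 41, 73 and 61 reads in ethanol libraries, and Psmb9 had 40, 33 and 20 reads in control and 20, 33 and 24 in ethanol libraries. Each of the 3 genes overlapped between the diets. Log2 fold changes came to 0.09 (SE 0.139) for Psmb10, 0.09 (SE 0.230) for Psmb8 and -0.17 (SE 0.314) for Psmb9, with edgeR adjusted p of 0.818, 0.897 and 0.866. The interval for Psmb9 ran from -0.85 to 0.52, so its difference was only loosely bounded at this depth. The thymus form Psmb11 had 6, 0 and 2 reads in control and 3, 4 and 4 in ethanol libraries and was not tested.

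Immune forms made up 1.45%, 1.44% and 1.21% of the summed FPKM of the 6 active-site genes in control libraries and 1.44%, 1.49% and 1.45% in ethanol libraries. The means were 1.37% ± 0.132 and 1.46% ± 0.0235 (SD, n = 3), and the exact two-sided permutation test gave p = 0.3. On CPM without length scaling the difference was 0.139 percentage points, with an exact permutation p of 0.1, the smallest possible. In FPKM, control library 3 was the lowest, and the other 5 libraries lay within 1.44% to 1.49%. By pair, the share of Psmb8 with Psmb5 was 2.03% in control and 2.29% in ethanol testes, that of Psmb9 with Psmb6 was 0.535% and 0.464%, and that of Psmb10 with Psmb7 was 2.06% and 2.27%. Exact permutation p-values of the 3 pairs were 0.5, 0.6 and 0.2. Beside these shares, the summed level of 9 macrophage markers was 109.8 to 118.4 CPM in control and 129.8 to 134.8 CPM in ethanol libraries, with 8 of the 9 above 0 and C1qa below 0. Of 9 lymphocyte and granulocyte markers, summed at 4.66 to 4.82 and 4.90 to 5.58 CPM, 6 were at 0 in at least 1 library, namely Cd3e, Cd3g, Cd79a, Nkg7, S100a8 and S100a9. The part of these cells in the immune forms was not tested.

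Genes for antigen processing work on the same pathway as the immune forms. Of 10 listed, 0 were called, and 3 had an unadjusted edgeR p under 0.05, or 30%, against 13.3% of all genes tested. Nlrc5, the activator of class I genes, was at 12.7 ± 1.24 CPM in control and 8.98 ± 2.05 CPM in ethanol testes (SD, n = 3), a log2 difference of -0.49 (edgeR adjusted p = 0.214). Irf1 was at 3.22 and 4.35 CPM (0.43, edgeR adjusted p = 0.270) and the class I gene H2-D1 at 13.6 and 17.4 CPM (0.35, edgeR adjusted p = 0.274). Across the list 8 genes were above 0 and 2 below.

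In the base of the regulatory particle 5 of the 6 ATPase genes were below 0 and 0 passed. Psmc2 had the smallest p, with 282.2, 282.3 and 306.4 CPM in control and 267.8, 257.3 and 285.8 CPM in ethanol libraries. Ethanol library 3 was above 2 of the control libraries, and the log2 fold change was -0.10 (SE 0.063, edgeR adjusted p = 0.515). Psmc1 had 79.9, 79.3 and 81.0 CPM in control and 72.1, 77.2 and 78.1 CPM in ethanol libraries, without overlap, a log2 difference of -0.08 (edgeR adjusted p = 0.620). Psmc3, the most abundant subunit gene, had 784.1, 706.4 and 816.0 CPM in control and 733.8, 743.3 and 802.0 CPM in ethanol libraries. Control library 2 was the lowest and control library 3 the highest of the 6, and the log2 fold change was -0.02 (SE 0.066). The span of Psmc3 meets that of Slc39a13 on the other strand.

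The base scaffold and ubiquitin receptor genes Psmd1, Psmd2 and Psmd4 were all below 0, between -0.06 and -0.01. Psmd2 had 548.3, 523.7 and 527.5 CPM in control and 519.3, 499.1 and 528.9 CPM in ethanol libraries, which overlap, with a log2 difference of -0.05 (SE 0.054, edgeR adjusted p = 0.754).

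Of the 8 lid genes, all had log2 fold changes below 0, from -0.13 to -0.01, with a median of -0.063, and 0 passed the test. On log2(TPM + 1) 6 of the 8 were below 0, where the median of all genes tested was 0.044. Psmd13 had the smallest p, with 63.8, 60.8 and 63.9 CPM in control and 53.9, 58.2 and 60.8 CPM in ethanol libraries. The lowest control and the highest ethanol library differed by less than the printed digits, at 60.84 and 60.82 CPM. Its log2 fold change was -0.13 (SE 0.068, edgeR adjusted p = 0.457), and its span meets that of Sirt3 on the other strand. Psmd12 had 82.3, 80.0 and 83.0 CPM in control and 79.4, 79.3 and 77.7 CPM in ethanol libraries, also without overlap, with a log2 difference of -0.05 (edgeR adjusted p = 0.744). Psmd3, the least abundant subunit gene, had 32.3, 35.8 and 35.6 CPM in control and 33.3, 27.9 and 33.6 CPM in ethanol libraries. Ethanol library 2 was the lowest, the groups overlapped, and the log2 fold change was -0.13 (SE 0.088, edgeR adjusted p = 0.567). Psmd14, the lid enzyme that cuts off ubiquitin chains, was at 39.7 ± 4.05 CPM in control and 39.4 ± 1.09 CPM in ethanol testes (SD, n = 3).

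**Figure D5:**
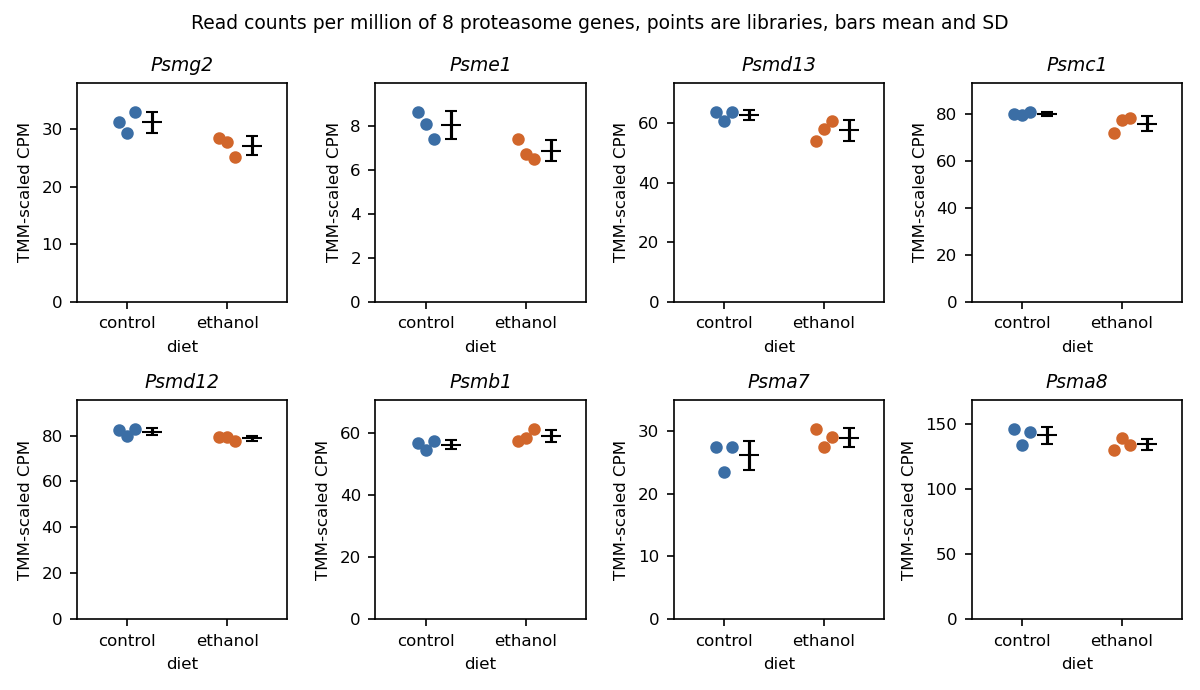
TMM-scaled CPM of 8 proteasome genes per library, control in blue and ethanol in orange, with mean and SD (n = 3) as bars and axes from 0. For Psmg2, Psme1, Psmd13, Psmc1, Psmd12 and Psmb1 the libraries of the diets do not overlap, and for Psma7 and Psma8 they do.

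Constitutive subunit genes deviated together from library to library. Of the 31, 25 had a log2 fold change below 0, with a median of -0.048, where 48.5% of all genes tested were below 0. For 4 of them, or 12.9%, the libraries did not overlap between the diets, against 18.8% of all genes tested. In control libraries 1 and 3, 26 and 24 of the 31 genes were above their own mean over the 6 libraries, and in ethanol library 3, 23 were. In control library 2 this held for 7 genes, and in ethanol libraries 1 and 2 for 5 and 9. Median deviations of the 31 genes from their means were 0.039, -0.049 and 0.057 on the log2 scale in control libraries 1, 2 and 3 and -0.048, -0.018 and 0.030 in the ethanol libraries. The diets overlapped in this measure. For the 15623 protein-coding genes tested at or above the lowest member mean CPM, the median deviation lay between -0.0052 and 0.0054. That median used a small constant added to the CPM before the log, and TMM scaling itself sets the bulk of genes near 0. Since the genes share these library shifts, the 25 directions are not 25 separate observations. On log2(TPM + 1) 13 of the 31 were below 0, and by total counts alone 19 were. The median of all genes tested was 0.044 on log2(TPM + 1) and 0.032 by total counts.

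The chaperone genes for assembly of the particle ranged from 3.30 FPKM for Psmg3 to 23.7 FPKM for Psmg2, so that Psmg2 lay among the lower subunit genes. The 3 chaperones of the regulatory particle, Psmd5, Psmd9 and Psmd10, had levels of 8.95 to 10.96 FPKM and log2 fold changes of 0.01 to 0.02. Psmd5 had 19.1, 20.8 and 19.8 CPM in control and 18.6, 20.4 and 21.4 CPM in ethanol libraries, which overlap (SE 0.085, edgeR adjusted p = 0.947). All 4 core chaperone genes, Psmg1 to Psmg4, were below 0. Psmg2, which works as a pair with Psmg1 in building the alpha ring, had 31.2, 29.4 and 33.0 CPM in control and 28.4, 27.8 and 25.2 CPM in ethanol libraries. Every ethanol library was below every control library. The means were 31.2 ± 1.82 and 27.1 ± 1.74 CPM (SD, n = 3), and the log2 fold change was -0.20 (SE 0.081, 95% interval -0.38 to -0.03). Its unadjusted p was 0.0286 and its edgeR adjusted p 0.313. Psmg1 had a log2 difference of -0.12 (edgeR adjusted p = 0.629), with overlapping libraries. Psmg3 and Psmg4 had log2 fold changes of -0.02 and -0.0023, with SEs of 0.146 and 0.207.

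Psme4 dominated the activators. It was at 157.6 FPKM over the 6 libraries and was 4.72 to 5.57 times as abundant as Psme3, the nuclear form of the ring-shaped activator family. Psme2 was at 8.76 FPKM and Psme1 at 6.86 FPKM. Psme4 lies at chr11:30771775-30881150. It had 1146, 1107 and 1092 CPM in control and 1125, 1170 and 1099 CPM in ethanol libraries. Ethanol library 2 was the highest and control library 3 the lowest. The log2 fold change was 0.02 (SE 0.053, edgeR adjusted p = 0.904), with a 95% interval from -0.10 to 0.14.

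Psme4 made up 77.4%, 78.0% and 77.0% of the summed FPKM of Psme1 to Psme4 in control libraries and 77.7%, 78.0% and 76.5% in ethanol libraries. The means were 77.5% ± 0.509 and 77.4% ± 0.780 (SD, n = 3), and the exact two-sided permutation test gave p = 0.9. Leaving out control library 2 turned the difference of -0.076 percentage points to 0.19, and leaving out ethanol library 3 turned it to 0.37. Summed levels of 6 elongating spermatid markers overlapped between the diets, at 13160 to 15620 CPM in control and 13230 to 16150 CPM in ethanol libraries.

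Psme1 and Psme2 encode the partners of the interferon-induced activator. Psme1 had 8.64, 8.07 and 7.39 CPM in control and 7.38, 6.72 and 6.48 CPM in ethanol libraries. The lowest control library was above the highest ethanol library by less than 0.1 CPM. The log2 fold change was -0.23 (SE 0.116, edgeR adjusted p = 0.430), and the span of Psme1 meets that of Emc9 on the other strand. Psme2 had 8.87, 7.82 and 8.35 CPM in control and 10.0, 8.55 and 8.58 CPM in ethanol libraries, which overlap, with a log2 difference of 0.12 (SE 0.114, edgeR adjusted p = 0.710). Psme3 had 95.4, 90.6 and 95.2 CPM in control and 90.03, 98.4 and 103.8 CPM in ethanol libraries, a log2 difference of 0.06 (SE 0.068). The inhibitor gene Psmf1 was at 214.7 ± 15.5 and 202.3 ± 6.75 CPM (SD, n = 3), a log2 difference of -0.09 (edgeR adjusted p = 0.619). Psme2b, a near copy of Psme2, had 6, 9 and 9 reads in control and 1, 2 and 3 in ethanol libraries. The libraries of the diets did not overlap, at few reads. The gene was below the count filter and was not tested in the main fit. Without that filter the unadjusted edgeR p of Psme2b was under 0.05. The lowest adjusted p of any member in that fit was 0.441. Reads may be shared between Psme2b and Psme2, which was not examined.

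Psmc3ip carries a proteasome symbol, but its product works in meiotic recombination and is not a proteasome subunit. It had 101.3, 88.0 and 98.4 CPM in control and 98.9, 87.0 and 91.1 CPM in ethanol libraries, which overlap, with a log2 difference of -0.05 (SE 0.074, edgeR adjusted p = 0.801). Without it the remaining 47 tested members had a median of -0.038 and 0 calls.

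None of the other pathway genes passed the test. The list held 31 genes for assembly factors, transcription factors, ubiquitin receptors and shuttles, ubiquitin and its activating enzymes. Of these, 30 were tested, Paaf1 was not analysed here, and 0 were called. The median log2 fold change was -0.017, and the libraries did not overlap for 10 of 30 genes, or 33.3%, against 18.8% of all genes tested. At an unadjusted edgeR p under 0.05 the shares were alike, 13.3% of the list (3 genes higher and 1 lower) and 13.3% of all genes tested. The 4 of smallest p were as follows. Nfe2l2, a regulator of oxidative stress genes, was at 15.3 ± 1.1 CPM in control and 19.1 ± 1.42 CPM in ethanol testes (SD, n = 3), a log2 difference of 0.32 (SE 0.094, edgeR adjusted p = 0.199). Its ethanol libraries were all above its control libraries. Ecpas, an adaptor of the proteasome, was at 115.8 and 129.4 CPM (0.16, edgeR adjusted p = 0.346). With an offset for transcript length the Ecpas value was 0.056 (edgeR adjusted p = 0.700). Nfe2l1, the factor that raises proteasome genes when the proteasome is inhibited, was at 58.1 and 64.3 CPM (0.15, edgeR adjusted p = 0.349). Ubqln1, a ubiquitin shuttle, was at 97.4 and 88.3 CPM (-0.14, edgeR adjusted p = 0.355).

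Summed levels of several marker lists did not overlap between the diets, although no marker passed the adjusted test. The 8 Sertoli markers were all above 0, at 866.9 to 937.7 CPM in control and 1014 to 1143 CPM in ethanol libraries summed, with a median log2 fold change of 0.25. The 7 round spermatid markers were all below 0, at 1327 to 1471 and 1271 to 1312 CPM, with a median of -0.13. The 3 blood genes were all above 0, at 24.0 to 35.3 and 45.9 to 55.2 CPM. Summed levels overlapped for the 6 Leydig markers, at 585.1 to 622.1 and 492.8 to 616.3 CPM, with 4 below 0 and 2 above. Single Leydig genes differed more than the sum. Cyp11a1 was at 58.1 CPM in control and 23.5 CPM in ethanol testes, without overlap (-1.30, edgeR adjusted p = 0.127). Cyp17a1 was at 137.8 and 86.8 CPM, with overlap (-0.67, edgeR adjusted p = 0.204). Sums also overlapped for the 6 spermatogonial markers, at 93.6 to 102.7 and 92.1 to 103.8 CPM. The same held for the 4 endothelial markers, at 33.3 to 38.9 and 36.0 to 43.4 CPM. The 4 peritubular markers were all above 0, at 91.1 to 95.2 and 95.6 to 102.8 CPM. Of 5 adipose and epididymis markers, summed at 10.6 to 15.1 and 12.0 to 14.8 CPM, Lcn5 was at 0 in every library and Crisp1 in some. The part of these marker levels in the values of the proteasome genes was not tested.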

How the data were processed

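Per the labels' protocols, ribosomal RNA was removed and stranded libraries were prepared from total RNA. HISAT2 was the aligner and mm10 the build, per the submitters' processing notes. How reads were counted, with which strand option and on which annotation release, is not given in the sources used here. Of the 50 members, 24 overlap another gene, 19 a gene on the other strand and 10 a coding gene on the other strand (GENCODE M21), so their counts may hold reads of both. These 10 are Psma4, Psmb7, Psmb9, Psmc3, Psmc3ip, Psmd1, Psmd5, Psmd9, Psmd13 and Psme1. The authors deposited read counts per gene without normalization, per the file headers. FPKM and TPM were computed by the authors and deposited beside the counts. There were 0 sample columns outside the 6 libraries.

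Counts were tested with edgeR 4.0.16 in R 4.3.3 after filterByExpr and TMM scaling, with diet as the only factor of the quasi-likelihood test and p-values adjusted after Benjamini and Hochberg over all genes tested, at a threshold of 0.05. Intervals are 95% intervals from the SE. Shares were compared by exact permutation over libraries. No library was a copy of another: the chi-square per gene was 12.1 or more in all 15 pairs, and 1 would be sampling noise. Alternatives used RLE, upper-quartile and total-count scaling, other filters, DESeq2 1.42.0, limma 3.58.1, the deposited FPKM and TPM with pseudocounts of 1 and 0.1, a replicate block, an offset for transcript length, protein-coding genes alone, a threshold of 0.1 and each library left out. The procedure was tested on simulated data.

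Members and lists were chosen with earlier results of these data known. Values in every library are given for the genes that the selection notes, their counterparts, the member of smallest p in each role, members without overlap and an unadjusted p under 0.05, and the most and least abundant subunits. Lists are represented by their 4 genes of smallest p, of which 1 is not reported here. Psma3, Psma6, Psmb1, Psmc1, Psmd12 and the motifs were chosen after their values were seen. The set without Psmc3ip was added after the data were seen. Members were matched to RefSeq by Gene ID.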

Additional observations from a re-analysis of the deposited data

How the results depend on the processing

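Under every alternative 0 members were called, also at an adjusted p of 0.1. Over all genes limma-voom called 3 higher and 2 lower, and the length offset 5 higher and 1 lower. Of 626 alternatives for single genes, 605 kept direction and side of the threshold and 21 reversed. Of 92 for summary results, 89 were kept, by loose criteria. Many of them are counts of members called, which were 0 under every setting. A count without overlap was kept within 1.5 times, and a difference in share if its sign held. A member median was kept if it moved by at most 0.049, which is more than its own size in the main fit (-0.042). The 89 therefore say little about how stable the summary results are. Members without overlap numbered 5 to 7 on the scales tried. On log2(TPM + 1) the member median became 0.0103, and log2 fold changes turned to 0.00686 for Psmb6, 0.00208 for Psmb7, 0.0407 for Psmc3, 0.0040 for Psmc3ip, 0.00864 for Psmd2 and 0.00343 for Psmd12. Psmc3 turned to 0.00878 by total counts, 0.00872 on log2(FPKM + 1), 0.00874 on log2(FPKM + 0.1) and 0.0037 with the length offset, which turned Psme4 to -0.0523. The cause was not tested. With each library left out in turn, Psmb8 ranged from -0.0559 to 0.268, Psmb9 from -0.381 to 0.0113, Psmc3 from -0.0753 to 0.0217, Psmd5 from -0.0334 to 0.0732, Psme4 from -0.00451 to 0.0339 and Psma6 from -0.0171 to 0.0411. Of 25 members examined this way, 22 moved by more than 1.5 times or changed sign, and Psmd12, Psme1 and Psmg2 did not. Ranges were -0.0966 to -0.00694 for Psmb6, 0.0231 to 0.155 for Psmb10, 0.0367 to 0.155 for Psme2, 0.00024 to 0.109 for Psme3, -0.184 to -0.0474 for Psmd3, 0.0751 to 0.186 for Psma7, -0.173 to -0.0792 for Psmd13 and -0.111 to -0.051 for Psma8. The member median ranged from -0.0757 to -0.0167. Left out in the same way, the difference in the Psme4 share ranged from -0.368 to 0.367 points, that in the Psma8 share from -4.11 to -2.42, and that in the immune share from 0.0167, without control library 3, to 0.132.

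With 3 libraries per diet, it cannot be decided whether the replicate numbers pair the libraries. Same-numbered libraries correlated at -0.192, -0.0231 and 0.436 in their deviations from the group means, over 13231 genes, and 1 of 3 correlated best with its own number. With the replicate number as a block the member median was -0.0394 with 0 members called, and over all genes 5 were called higher and 10 lower. Depth limited Psmb8, Psmb9, Psmb11 and Psme2b.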
